A study of Mus musculus with 4 samples.

Results

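Cycling leukocytes were the barcodes of 4 mouse kidney libraries that carried a leukocyte transcript together with transcripts of dividing cells. A barcode, the tag shared by all transcripts of 1 droplet, was kept when it held at least 500 unique molecular identifiers (UMIs, counted transcript molecules), at least 300 detected genes and at most 50% mitochondrial UMIs. Of the 50605 kept barcodes, 18091 passed the leukocyte gate, which asked for at least 1 UMI of Ptprc (CD45, the surface phosphatase of blood cells) and at most 3 UMIs of the proximal tubule genes Lrp2 and Slc34a1. Of these, 1616 had at least 3 UMIs of Mki67 and Top2a summed and were called cycling, so the members were chosen by their measured counts of these genes. At least 10 UMIs of C1qa, C1qb and C1qc marked 768 of them as macrophages, at least 2 UMIs of Cd3d, Cd3e and Cd3g marked 444 of the remainder as T cells, and 404 were other leukocytes. The tubule limit left out 51, 33, 62 and 54 barcodes that met the other conditions, in BPTES replicates 1 and 2 and DMSO replicates 1 and 2. Values for the 4 libraries are given in this order throughout.

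The source was kidney of C57BL/6 mice, all males and 19 months old. BPTES or its vehicle DMSO was given for 1 month, with 2 libraries for each. Digested kidney was stained for CD45, and a library pooled 20000 cells without CD45 with 9000 CD45-positive ones from the same tissue, so shares of leukocytes among all barcodes were set by the sort and are not compared. The sort was not recorded per barcode, and the labels do not say how many animals stand behind a library, so p-values measure only the spread between these libraries. The libraries held 17907 to 20091 barcodes and 249881074 to 297947661 UMIs in the deposited tables. BPTES replicate 2 was the smallest in both and held 249881074 UMIs, while the other 3 held 296360271 or more, and the median kept barcode had 14098.5, 13383.5, 14939 and 15326 UMIs. Between 36 and 54 kept barcodes occurred in both libraries of a pair, which a shared list of barcode sequences can give.

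BPTES is a small molecule that inhibits the use of glutamine by cells. Dividing cells use glutamine as the nitrogen donor for purines, pyrimidines and amino acids and as a carbon source, and activated lymphocytes and macrophages take up much of it. Mki67 encodes the chromosome surfactant Ki-67 and Top2a the DNA topoisomerase that untangles sister chromatids. Both transcripts build up from S phase to mitosis and are low in resting cells. Kidney macrophages maintain themselves in part by local division, while T cells divide after antigen or cytokine signals.

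Only a minority of the members carried the strong expression programme of dividing cells. The number of members with 3 to 9 UMIs of Mki67 and Top2a was 1051, and 565 had 10 or more. In the stronger members, 32 genes of DNA replication and S phase made up a median of 20.5 of every 10000 UMIs, and 32 genes of G2 and mitosis made up 25.002. In the weaker members these medians were 5.04 and 2.92. Among the 14350 gated barcodes without any Mki67 or Top2a UMI they were 3.33 and 1.53, so the weaker members lay nearer to these than to the stronger members. At the edge of the rule, the 441 members with exactly 3 UMIs had medians of 4.29 and 2.66, and the 768 barcodes with exactly 2, just outside, had 4.37 and 2.51. These levels describe the cells the rule chose and were not tested.

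**Figure D1:**
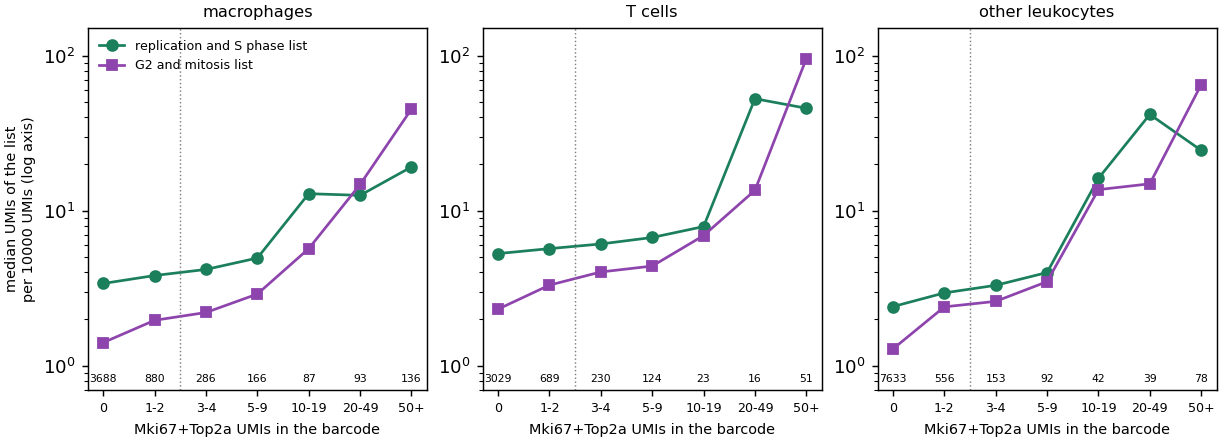
Median share of UMIs from the replication and S phase list (circles) and the G2 and mitosis list (squares), per 10000 UMIs on a log axis, for barcodes binned by their Mki67 and Top2a UMIs. The numbers above the axis count barcodes, the dotted line marks the threshold of 3 UMIs, and the steep rise begins at 10 UMIs in macrophages and other leukocytes and at 20 in T cells.

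The members were deep barcodes, and many macrophage members also held transcripts of a lymphocyte. The median member held 37543.5 UMIs, against 12089 in barcodes without Mki67 and Top2a. In macrophages the medians were 53514, 51035, 52535 and 49317.5 UMIs for members and 18331, 17438, 19407 and 21072 for non-cycling barcodes, the latter being those with 0 UMIs of both genes. In T cells the gap was smaller, with 14897 to 16307 UMIs in members and 11580 to 11852 in non-cycling barcodes. At least 2 Cd3 UMIs were found in 385 of the 768 macrophage members (46.3, 53.8, 43.9 and 56.8%), against 19.96 to 23.3% of non-cycling macrophages. A barcode was called two-type when it was gated as macrophage and had these Cd3 UMIs, or was gated as macrophage or T cell and had at least 5 UMIs of the plasma cell gene Mzb1 or of the B cell genes Cd79a and Cd79b. This held for 59.5, 70.3, 51.4 and 61.9% of macrophage members and for 5.80, 4.62, 1.60 and 3.78% of T cell members. Whether such barcodes were 2 cells in 1 droplet, cells bound to each other or free RNA was not tested. Values without them are given below for the main counts and for some of the named genes, and most named calls were lost without them.

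Genes of G2 and mitosis were far higher in members than in non-cycling barcodes of the same gate, and in macrophages immunoglobulin genes were also among those of the highest ratio. In CPM (a gene's UMIs scaled to a common library total), Pclaf, a partner of the replication clamp, was at 72.6 in cycling and 0.556 in non-cycling macrophages, a ratio of 130 with a range of 85.1 to 162 over libraries. Cenpf, a kinetochore protein, was at 51.9 and 0.792 CPM, a ratio of 65.6 (36.1 to 117). Stmn1, which destabilises microtubules, was at 189.9 and 9.64 CPM, a ratio of 19.7 (14.6 to 26.3). In T cells the ratio was 294 for Pclaf, 275 for Cenpf, 369 for Hmmr, a spindle-associated receptor, 256 for Ube2c, a ubiquitin-conjugating enzyme of the anaphase-promoting complex, and 161 for Birc5 (survivin), a subunit of the chromosomal passenger complex. All 32 G2 and mitosis genes were above a ratio of 1 in macrophages, with a median of 22.6, and the 32 replication genes had a median of 3.30. In T cells these medians were 40.4 (31 genes with a ratio) and 4.48, and in other leukocytes 53.9 and 7.28. Among the 20 genes of the highest ratio with at least 50 CPM in members, 13 in T cells and 12 in other leukocytes belonged to these 2 lists, and 4 in macrophages. Another 7 of the 20 in macrophages were immunoglobulin genes or Jchain, the joining chain of secreted IgA and IgM. Jchain itself had a mean of 5177 CPM in cycling and 1233 in non-cycling macrophages, a ratio of 4.20. The libraries were far apart, with 42717, 66478, 22080 and 21510 Jchain UMIs in cycling macrophages. These lay in sums of 7304557, 5451841, 16179347 and 16529930 UMIs. Since the rule chose these cells by 2 cell cycle genes, the ratios are descriptions.

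Known cell cycle elements were searched for in the promoters of both lists, and 6 promoters that hold one are shown beside the ratios of their genes. Stretches of 60 bases upstream of the annotated start were taken from RefSeq (GRCm38.p6), 1 promoter per gene, and are written 5′ to 3′ on the gene's strand. Capitals mark CCAAT or its reverse complement ATTGG, the box bound by NF-Y, in 3 genes of G2 and mitosis, the kinetochore kinase Bub1, Hmmr and the cyclin B gene Ccnb1.
Bub1: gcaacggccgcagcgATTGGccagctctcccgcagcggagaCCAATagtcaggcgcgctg
Hmmr: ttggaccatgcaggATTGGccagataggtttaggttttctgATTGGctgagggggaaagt
Ccnb1: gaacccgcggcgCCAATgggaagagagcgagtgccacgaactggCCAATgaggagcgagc
These lie at chr2:127831883-127831942, chr11:40733439-40733498 and chr13:100786538-100786597, each on the minus strand. In the next 3 sequences capitals mark GCGGGAA or its reverse complement TTCCCGC, a core of E2F sites, in genes of replication, the maintenance methylation cofactor Uhrf1, the origin licensing factor Cdc6 and the chromatin assembly subunit Chaf1a.
Uhrf1: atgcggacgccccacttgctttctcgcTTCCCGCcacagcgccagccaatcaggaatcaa
Cdc6: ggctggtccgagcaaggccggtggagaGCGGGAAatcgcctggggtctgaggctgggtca
Chaf1a: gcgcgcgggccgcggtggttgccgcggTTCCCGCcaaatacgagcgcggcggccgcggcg
These lie at chr17:56303262-56303321, chr11:98907986-98908045 and chr17:56040342-56040401, each on the plus strand. In cycling over non-cycling macrophages the ratio was 110 for Bub1, 90.7 for Hmmr, 48.3 for Ccnb1, 12.9 for Uhrf1, 6.61 for Cdc6 and 4.93 for Chaf1a. In the 250 bases before the start, CCAAT on either strand was found in 21 of the 27 G2 and mitosis genes with a promoter in the table (77.8%), in 15 of 26 replication genes (57.7%) and in 34.5% of all 27025 promoters. It occurred at least 2 times in 15 of 27 (55.6%) against 10.5% of all. GCGGGAA was found in 9 of 26 replication genes (34.6%), in 0 of 27 G2 and mitosis genes and in 3.84% of all promoters. TTTGAA, the core of the CHR element, was found in 6 of 27 G2 and mitosis genes (22.2%), in 3 of 26 replication genes (11.5%) and in 16.3% of all. These are letter matches in 1 window and not measured binding.

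The share of leukocytes called cycling was lower under BPTES in each gate. Among all gated leukocytes, 6.32, 5.50, 10.6 and 13.05% were cycling, that is 285 of 4508, 234 of 4251, 524 of 4941 and 573 of 4391 barcodes. Both BPTES libraries lay below both DMSO libraries. The means were 5.91% ± 0.578 under BPTES and 11.8% ± 1.73 under DMSO (SD, n = 2 each), a 2.00-fold difference. With 2 libraries per group the exact two-sided permutation test cannot go below p = 0.333, and it gave p = 0.333 here and in each of the 3 gates below, so no share passed a test.

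At 3 UMIs of Mki67 and Top2a, macrophages had a higher cycling share than T cells in each library, and their barcodes were deeper. T cells had the higher share in each library when barcodes were thinned to 3000 UMIs and called at 1 UMI, as described below, a count that changes the threshold and leaves out shallow barcodes too. In macrophages the shares were 9.96, 8.18, 17.2 and 19.99%, with 95% exact binomial intervals of 8.33 to 11.8%, 6.63 to 9.94%, 15.4 to 19.1% and 17.9 to 22.2%. The groups did not overlap, and the difference between the means was 2.05-fold (9.07% ± 1.26 and 18.6% ± 1.98, SD, n = 2). In T cells the shares were 7.27, 6.22, 11.5 and 17.1%, again without overlap, and the means differed 2.12-fold (6.75% ± 0.743 and 14.3% ± 3.89). The 2 DMSO libraries differed by more in T cells than the lower of them differed from BPTES replicate 1. In other leukocytes the shares were 4.05, 3.73, 5.40 and 5.74%, the smallest difference, at 1.43-fold (3.89% ± 0.231 and 5.57% ± 0.244). Among members, macrophages made up 42.5, 38.9, 53.1 and 48.5%, T cells 24.2, 27.8, 23.9 and 32.3% and other leukocytes 33.3, 33.3, 23.1 and 19.2%. Among members with at least 10 Mki67 and Top2a UMIs, 49 of 81, 31 of 78, 128 of 212 and 108 of 194 were macrophages. There the groups overlapped, with means of 50.1% ± 14.7 under BPTES and 58.0% ± 3.33 under DMSO.

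**Figure D2:**
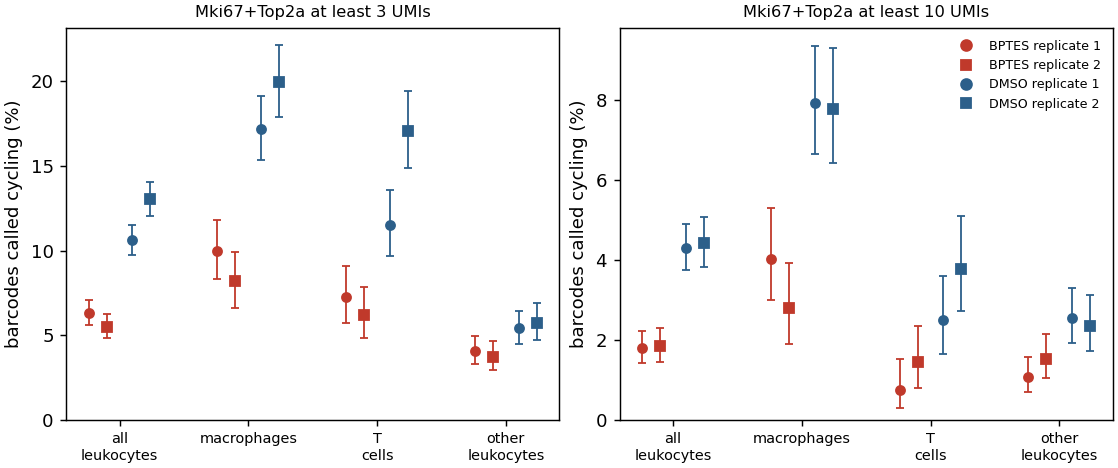
Percent of gated barcodes called cycling in each library, at 3 or more (left) and 10 or more (right) UMIs of Mki67 and Top2a, with 95% exact binomial intervals that cover counting error only. Both BPTES libraries (red) lie below both DMSO libraries (blue) in every gate at both thresholds.

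Both BPTES libraries were also lower where the strong members alone were counted and where barcodes were thinned to an equal depth. With at least 10 Mki67 and Top2a UMIs, 1.80, 1.83, 4.29 and 4.42% of gated leukocytes were cycling, a 2.40-fold difference. In macrophages this was 4.03, 2.79, 7.92 and 7.76%, and in T cells 0.738, 1.44, 2.49 and 3.78%. Thinning each barcode to 3000 UMIs, with at least 1 Mki67 or Top2a UMI as the call, left out 614, 552, 604 and 550 shallower leukocytes. The shares were then 6.78, 5.43, 10.7 and 11.1% over all gates, 7.39, 4.61, 11.8 and 12.3% in macrophages and 9.78, 8.50, 15.2 and 16.9% in T cells. Without two-type barcodes, 6.22, 3.77, 12.3 and 12.6% of macrophages were cycling, a 2.49-fold difference, and the means of 4.99 and 12.4% were below those of T cells, 6.53 and 14.1%. In each of these counts both BPTES libraries were below both DMSO libraries.

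Background levels of the call were below the leukocyte shares and were not equal between groups. Among proximal tubule barcodes without Ptprc, 0.202, 0.231, 0.833 and 0.503% reached 3 UMIs, at a median depth of 16155 to 20163 UMIs. Tubule cells can themselves divide, so this is not a pure background. Among neutrophil barcodes, which are post-mitotic, the shares were 0.847, 0.873, 0.810 and 0.415%, at 9322.5 to 9951 UMIs, with 1 or 2 barcodes in each library. None of these neutrophil barcodes reached 10 UMIs, whereas 5, 4, 28 and 8 tubule barcodes did (0.101, 0.0839, 0.598 and 0.192%), fewer in both BPTES libraries. Thinned to 3000 UMIs as above, 1.70, 1.31, 2.46 and 1.67% of neutrophil barcodes and 0.388, 0.339, 1.08 and 0.676% of tubule barcodes were called. The other leukocytes, a gate that holds neutrophils, had 4.77, 4.02, 6.91 and 5.65% in that count.

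Within T cells, the groups were apart at 3 UMIs of Mki67 and Top2a in barcodes with Cd4, with Cd8 and of neither gate. They overlapped in those with Foxp3. Of barcodes with Cd4 and without Foxp3, 9.77, 8.16, 16.8 and 22.5% were cycling (179 of 1205 in all), with means of 8.96 and 19.6%. Among Cd8 barcodes, with at least 2 UMIs of Cd8a and Cd8b1, the shares were 7.10, 8.23, 9.68 and 15.6% (162 of 1539), also without overlap. At 10 or more Mki67 and Top2a UMIs, 3 of 324, 7 of 389, 3 of 372 and 11 of 454 Cd8 barcodes were called, with overlapping groups. In the Cd4 gate these were 2 of 256, 5 of 282, 14 of 333 and 16 of 334, without overlap. In T cells of neither gate they were 1 of 328, 0 of 346, 6 of 325 and 3 of 203, also without overlap. Barcodes with Foxp3, the transcription factor of regulatory T cells, had a share of 19.9% in all (43 of 216), with 14.6, 17.9, 15.1 and 25.5% in the 4 libraries. This was above the Cd4 share in each library but DMSO replicate 1. Here the groups overlapped, and the 95% intervals were wide, from 5.57 to 29.2% in BPTES replicate 1 and from 17.1 to 35.6% in DMSO replicate 2. The remaining T cells, with 0 UMIs of Cd4 and Foxp3 and fewer than 2 of Cd8a and Cd8b1, had 4.57, 1.45, 7.69 and 7.39%, with means of 3.01 and 7.54%. The smallest p of the exact permutation test is again 0.333, and whether the gates differed from each other in their response was not tested.

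Dendritic-like cells had a high cycling share, and here the treatment groups overlapped. A barcode among the other leukocytes took the name of the marker list with most UMIs, among lists with at least 3 detected genes. Of 891 dendritic-like barcodes 187 were cycling, with 20.5, 22.4, 18.1 and 24.4% in the 4 libraries. The mean was 21.5% ± 1.39 under BPTES and 21.2% ± 4.43 under DMSO (SD, n = 2), with overlapping groups. B cell-like barcodes were cycling in 3.44, 1.89, 9.75 and 7.30% (51 of 969), without overlap. Monocyte-like barcodes gave 4.41, 3.11, 3.15 and 7.10% (45 of 1103), and plasma cell-like barcodes 14.3, 17.0, 29.4 and 6.67% (38 of 236), where DMSO rests on 17 and 15 barcodes. The largest class matched no list, with 57 of 3478 barcodes cycling (1.09, 0.822, 2.08 and 2.39%, without overlap). Natural killer-like barcodes had 11 of 346. Of 1051 neutrophil-like barcodes 8 were cycling, 2 in each library. The shares were 0.823, 0.810, 0.746 and 0.683%, slightly higher in both BPTES libraries. Innate lymphoid-like barcodes had 3 of 371 and plasmacytoid dendritic-like barcodes 4 of 135. Naming asked for 3 detected genes and the cycling call for 3 UMIs, both of which a deep barcode reaches more readily. Other leukocytes had a median of 39674.5 UMIs in members and 9454 in barcodes without Mki67 and Top2a. Shares at equal depth were not taken for these classes or for the T cell gates above.

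**Figure D3:**
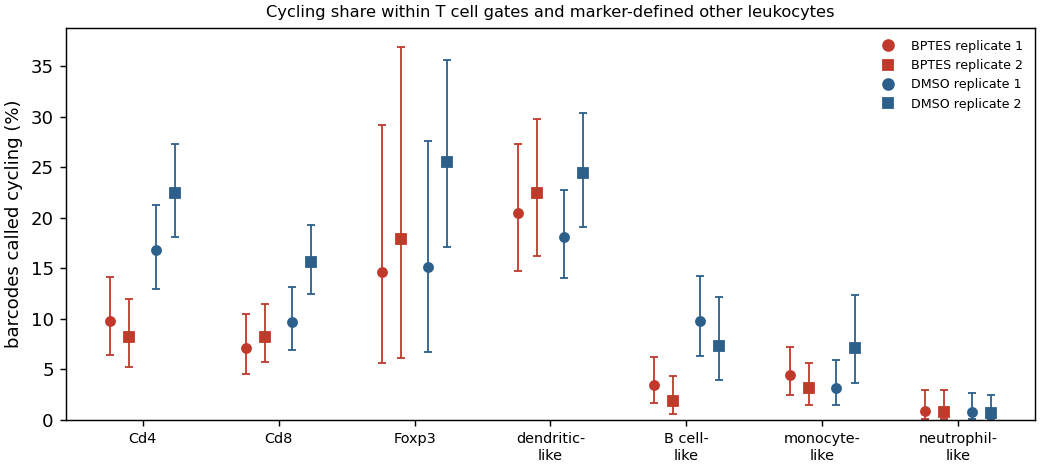
Percent of barcodes called cycling in each library within T cell gates and marker-named other leukocytes, with 95% exact binomial intervals that cover counting error only. The groups separate in Cd4, Cd8 and B cell-like barcodes and overlap in Foxp3, dendritic-like and monocyte-like barcodes. Neutrophil-like barcodes, with 2 cycling in each library, are slightly higher in both BPTES libraries. The call is at 3 UMIs of Mki67 and Top2a, and at 10 or more the Cd8 groups overlap.

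Cell cycle genes themselves were not called different between treatments in the members. UMIs were summed per library over the members, and BPTES was compared with DMSO by edgeR's quasi-likelihood test with Benjamini-Hochberg adjustment over all genes tested, at an adjusted p of 0.05. Over all members 378 of 14292 genes passed, a background of 2.64%, and none of the 32 replication genes or the 32 G2 and mitosis genes was among them. An unadjusted p under 0.05 was reached by 7 and 0 of them and by 2888 of all genes. Pcna, the replication clamp, was at 114, 99.0, 116 and 114 CPM after TMM scaling, and Mcm5, a subunit of the replicative helicase, at 45.6, 37.0, 47.7 and 45.9. Cdk1, the mitotic kinase, was at 34.1, 38.2, 45.6 and 35.9 CPM. BPTES replicate 2 was lowest for Pcna and Mcm5, and the groups overlapped for Pcna and Cdk1. The median log2 fold change was -0.24 for the replication list and -0.06 for the G2 and mitosis list, beside -0.01 for all genes. Members of both groups were chosen by Mki67 and Top2a, so levels of genes that vary with these 2 are in part set by the rule. The absence of calls is therefore a description of the chosen cells.

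The replication genes leaned lower in macrophages without a single call. Their median log2 fold change was -0.39, beside -0.01 for all genes, with 31 of 32 below 0 and 18 at an unadjusted p under 0.05, against 2340 of all 13263 genes tested. Summed, the list made up 994, 836, 1351 and 1178 CPM in cycling macrophages and 397, 348, 410 and 430 in non-cycling ones. Without two-type barcodes the median was -0.49 with 32 of 32 below 0, and among members with at least 10 Mki67 and Top2a UMIs it was -0.37 with 31 of 32. In T cells the median was -0.08 with 19 of 32 below 0, which turned to 0.02 without two-type barcodes and to 0.11 without the barcodes that the doublet caller Scrublet scored highest. In other leukocytes it was -0.42 with 30 of 32, and -0.27 at 10 UMIs. The G2 and mitosis list had medians of -0.20 in macrophages, 0.14 in T cells and -0.54 in other leukocytes, with 0 genes called in each. In other leukocytes it was -0.13 at 10 UMIs, in macrophages -0.08 without Scrublet doublets, and in T cells 0.27 without two-type barcodes and 0.24 without Scrublet doublets. Over all members the G2 and mitosis median of -0.06 turned to 0.11 at 10 UMIs and 0.02 without Scrublet doublets. Genes of a phase vary together across libraries, so these counts are not independent observations.

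In cycling macrophages, Spp1, Ccl2, Cfp, Msr1 and Trem2 were among the genes that fell under BPTES. Of 13263 genes, 109 passed (0.822%), 55 higher (0.415%) and 54 lower (0.407%), and 51.6% of all genes had groups that did not overlap. Spp1 (osteopontin, a secreted matrix and cytokine-like protein) was at 40.5, 34.8, 124 and 111 CPM, and fell by 1.63 on the log2 scale (SE 0.109, edgeR adjusted p 0.00622). Ccl2, the chemokine that recruits monocytes, was at 55.6, 55.1, 135 and 189 CPM, and fell by 1.55 (SE 0.178, edgeR adjusted p 0.0410). Cfp, properdin of the alternative complement pathway, was at 95.2, 113, 227 and 229.8 CPM, and fell by 1.14 (SE 0.096, edgeR adjusted p 0.0113). In each case both BPTES libraries were about equal and below both DMSO libraries. Msr1, the class A scavenger receptor, was at 35.2, 29.7, 72.9 and 68.4 CPM, a log2 change of -1.11. Trem2, a lipid-sensing receptor of tissue macrophages, was at 55.9, 45.5, 94.3 and 98.7 CPM, a log2 change of -0.92. Il1a, interleukin 1 alpha, was low throughout, at 2.24, 1.57, 12.3 and 15.6 CPM, with a log2 change of -2.83. Other genes that fell were Mmp14, a membrane-bound metalloproteinase, Rgl1, Ms4a6d, Cndp2, a cytosolic dipeptidase, and Bcl2a1b, an anti-apoptotic gene whose counts can be shared with near-identical copies, with log2 changes of -1.19 to -0.91. On the lists, 0 of 16 macrophage identity genes and 2 of 18 NF-kB and inflammation genes, Ccl2 and Il1a, were called in this gate, and 10 and 9 of them had an unadjusted p under 0.05, against 17.6% of all genes. Neutrophil markers, none of the 6 at 0, made up 113, 280, 387 and 561 CPM of these sums and were lower in both BPTES libraries. In non-cycling macrophages they made up 1058, 1045, 708 and 661 CPM. Macrophage markers, none of the 7 at 0, made up 5710, 4547, 7773 and 9088 CPM in cycling macrophages. In non-cycling ones they made up 8348, 7820, 10396 and 12150 CPM, lower in both BPTES libraries in each state. The part of either list in the genes that fell was not tested. None of Spp1, Ccl2, Cfp, Msr1 and Trem2 was among the genes called for a different effect between the states, given below.

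Among the 55 genes that rose in cycling macrophages under BPTES were 4 of the 6 plasma cell markers, Mzb1, Sdc1, Tnfrsf17 and Derl3. Mzb1, a chaperone of immunoglobulin assembly, was at 321, 333, 44.9 and 74.2 CPM, and rose by 2.46 on the log2 scale (SE 0.255, edgeR adjusted p 0.0473). Txndc5, a protein disulfide isomerase, was at 184, 228, 57.6 and 71.4 CPM, a rise of 1.67. Cd79a, a signalling chain of the B cell receptor, was at 120, 166, 43.5 and 54.0 CPM, a rise of 1.55. The groups did not overlap for any of these 3. Creld2, an endoplasmic reticulum stress protein, and Slpi, a secreted protease inhibitor, rose by 1.28 and 1.62. Ly6d, a surface marker of the B lineage, Dennd5b and Prg2, the granule major basic protein, rose by 2.17, 1.78 and 1.68. The rise of Prg2 was smaller than in non-cycling macrophages, as given below. The variable gene Igkv3-2 rose by 3.71 with 73.3% of its UMIs in 3 barcodes. Genes of other kinds rose too, such as Flt3, a cytokine receptor of dendritic cells and their precursors (0.72), and Cldn1, a tight junction protein (1.42). Plasma cell marker genes together made up 6302, 12644, 1460 and 1431 CPM of these macrophage sums, and B cell markers 334, 341, 179 and 185. None of the 6 markers in either list was at 0. At least 5 UMIs of Mzb1 were held by 23 of 121, 18 of 91, 16 of 278 and 23 of 278 macrophage members, a higher share in both BPTES libraries. The part of these markers and barcodes in the genes that rose was not tested.

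**Figure D4:**
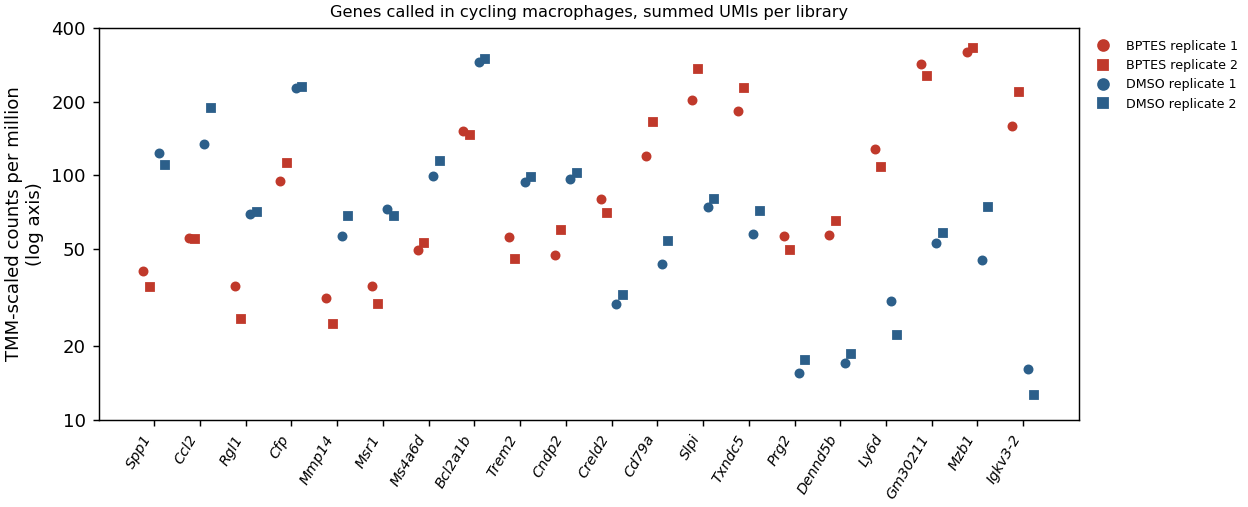
TMM-scaled CPM in cycling macrophages (log axis) in each library, for the 10 genes with the largest fall and the 10 with the largest rise among called genes of sufficient level. BPTES libraries (red) and DMSO libraries (blue) do not overlap for any of the 20, which was a condition for naming them.

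Without two-type barcodes the lower genes of the macrophage gate that could still be tested kept their direction, and none kept its call. Of the 54 lower genes 49 could still be tested, all 49 kept their sign, and their median log2 change was -0.87 before and -0.88 after. They were chosen as lower in sums that hold these same barcodes, so the kept signs are a description. The lower genes Il10, Pdpn, Cd163l1, Cd5 and Trdc, the last on the T cell list, had no value without two-type barcodes. Of the 55 higher genes 39 could be tested, 31 kept their sign, and their median went from 0.94 to 0.27. Since the two-type call itself uses Mzb1, Cd79a and Cd79b, the loss of these genes and of others from the same barcodes follows from the rule, and the values of the higher genes are a description. Mzb1, Cd79a and Ly6d no longer passed the count filter, and Txndc5 went to a log2 change of -0.0008. Slpi turned to -3.16, and Creld2 went to 0.18. Of the lower genes, Spp1 was at -1.62 (edgeR adjusted p 0.0953), Msr1 at -1.22 (0.0782), Trem2 at -0.996 (0.0953), Cfp at -0.87 (0.150) and Ccl2, which moved most of these, at -0.88 (0.0854), and none of the 5 passed. The number of called genes nevertheless fell to 2, S100a9, a neutrophil calgranulin (-5.30), and Igkc, the kappa constant region (2.59), neither of them among the 109. These fits hold 49, 27, 135 and 106 barcodes. Dropping BPTES replicate 1 gave 22 calls and dropping BPTES replicate 2 gave 23, whereas dropping DMSO replicate 1 or 2 gave 405 or 337. Of these calls 9, 8, 108 and 105 were among the 109, and all 109 kept their sign. A gene whose groups do not overlap keeps its sign whichever library is left out, so these kept signs are a description. Members with at least 10 Mki67 and Top2a UMIs gave 11 calls, all lower. The lowest p-values were those of the neutrophil calgranulins S100a8 (-5.49) and S100a9 (-4.87), which are on the neutrophil list above, and Il1a (-4.28), Acod1, the enzyme of itaconate synthesis (-4.27), and Msr1 (-1.35) were called as well. Spp1 (-0.95, edgeR adjusted p 0.523), Ccl2 (-0.99, 0.347), Cfp (-0.75, 0.133) and Trem2 (-0.65, 0.213) did not pass in these members.

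**Figure D5:**
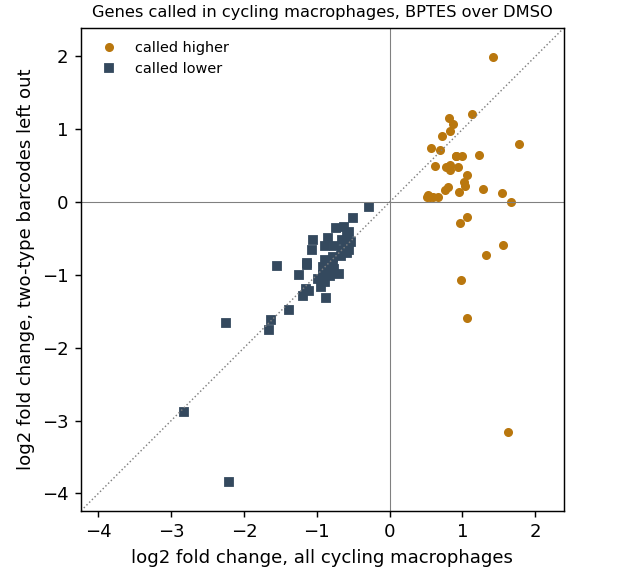
Log2 fold change (BPTES over DMSO) of genes called in cycling macrophages, in all members (horizontal) and without two-type barcodes (vertical), for the 49 lower (squares) and 39 higher (circles) genes that could be tested in both. The vertical fit holds part of the barcodes of the horizontal one. Lower genes lie around the dotted line of equal values, with medians of -0.87 and -0.88. Most higher genes fall below it, with medians of 0.94 and 0.27, and some, such as Cldn1 and Grk5, lie above it. Mzb1 and Cd79a, which the two-type call used, had no value without these barcodes and are not shown.

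In cycling T cells, 5 of 10656 genes passed (0.0469%), all higher, among them Jchain, Igha and Mzb1 of plasma cells. Plasma cell markers made up 4986, 3654, 68.7 and 85.4 CPM in this gate, with none of the 6 at 0. Jchain had 8252, 5139, 10 and 14 UMIs, and its log2 change was 10.3 (SE 0.283, edgeR adjusted p 0.000641). In the BPTES libraries 99.5 and 99.0% of these UMIs were in 3 barcodes. Igha, the heavy chain of IgA, was at 8287, 10612, 9.45 and 10.6 CPM, with 98.4% of its UMIs over the 4 libraries in 3 barcodes. For Mzb1, Gm30211 and Txndc5 this share was 60.1, 58.0 and 38.2%. Without two-type barcodes Igha alone was called (log2 change 4.28, edgeR adjusted p 0.0431). Without Scrublet doublets 1 gene was called, which was none of the 5, and all 5 kept their sign. Leaving out 1 library gave 13, 8, 6 and 6 calls, with 4 of the 5 among them each time. Of the 25 genes of T cell identity and activation, none was called, with a median log2 change of -0.13.

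In other cycling leukocytes, Xbp1, Pdia4, Sec11c and Lyz2 were among the genes that rose under BPTES, and H2-DMb2, Traf1, Mrc1 and Igfbp7 among those that fell. Of 11454 genes, 84 passed (0.733%), 37 higher (0.323%) and 47 lower (0.41%). Xbp1, the transcription factor of the unfolded protein response and of plasma cell secretion, was at 253, 357, 103 and 86.7 CPM, a rise of 1.69 (SE 0.196, edgeR adjusted p 0.0380). Pdia4 and Sec11c, enzymes of protein folding and signal peptide cleavage, rose by 1.86 and 1.57. Plasma cell-like barcodes were 14 of 95, 18 of 78, 5 of 121 and 1 of 110 members in this gate, and plasma cell markers made up 10513, 18371, 1464 and 113 CPM. The share of plasma cells and the level per cell cannot be told apart in these sums. Lyz2 (lysozyme) was at 2251, 1817, 629 and 511 CPM, a rise of 1.84 (SE 0.154, edgeR adjusted p 0.0180). Monocyte markers, none of the 7 at 0, made up 1106, 922, 865 and 807 CPM, and monocyte-like barcodes were 15 of 95, 10 of 78, 9 of 121 and 11 of 110 members. Both were higher in the BPTES libraries, and their part in the rise of Lyz2 was not tested. H2-DMb2, a peptide exchange factor of MHC class II, was at 173, 142, 291 and 314 CPM, a fall of 0.94, and Traf1, an adaptor of TNF receptors, at 91.0, 92.6, 159 and 185, a fall of 0.91. Of the 9 genes on the MHC class II list, which does not hold H2-DMb2, none was called, all were below 0 with a median of -0.29, and 7 had an unadjusted p under 0.05, against 15.1% of all genes. Dendritic-like barcodes were 35 of 95, 35 of 78, 59 of 121 and 58 of 110 members in this gate, and B cell-like barcodes 10, 5, 23 and 13, both lower shares in the BPTES libraries. B cell markers, none of the 6 at 0, made up 722, 488, 873 and 554 CPM, with overlapping groups. Dendritic cell markers, none of the 8 at 0, made up 820, 841, 1103 and 1358 CPM and were lower in both BPTES libraries. Their part in the genes that fell was not tested.

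Some of the lower genes in this gate came from very few barcodes. Igfbp7, a secreted protein of vessel wall and stroma, was at 10.0, 10.3, 241 and 386 CPM, with 80.8% of its UMIs in 3 barcodes. Fibroblast and mural markers made up 1.94, 0.773, 132 and 52.8 CPM in this gate and endothelium markers 64.9, 81.6, 182 and 170.5, with none of the 6 of either list at 0. Both were lower in the BPTES libraries, and their part in the genes that fell was not tested. At least 50% of the UMIs lay in 3 barcodes for 33 of the 47 lower genes and for 435 of the 11454 genes tested. Mrc1, the mannose receptor, had 15.3% of its UMIs in 3 barcodes, and was at 46.8, 32.9, 109 and 121 CPM, a fall of 1.53. The light chain variable gene Igkv5-48 was at 84.3 and 102 CPM under BPTES, all of it in 3 barcodes, and had 0 UMIs in both DMSO libraries, which makes it at least 122-fold higher against a floor of 3 counts per library. Leaving out 1 library gave 5, 0, 66 and 21 calls, in the order of the libraries, of which 0, 0, 11 and 5 were among the 84. Without BPTES replicate 2 edgeR called none, with 1230 at an unadjusted p under 0.05. Of Xbp1, Lyz2, H2-DMb2 and Traf1, Lyz2 kept its call in the fit without DMSO replicate 1. The others lost it whichever library was left out. All kept their sign, which follows where the groups do not overlap, as in each of these genes.

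Over all members, Clec4n, Mrc1, Fcgr1, Pf4 and Ccl12 were among the genes that fell and Pou2af1 and Ighg2c among those that rose under BPTES. Of the 378 called genes 196 were higher (1.37% of all tested) and 182 lower (1.27%). Clec4n (dectin-2, a receptor for fungal sugars on macrophages and monocytes) was at 12.3, 15.9, 53.3 and 56.6 CPM, and fell by 1.97 (SE 0.128, edgeR adjusted p 0.00722). It kept an edgeR adjusted p of 0.0157 among members with at least 10 Mki67 and Top2a UMIs (log2 change -2.15), and had 0.0523 without two-type barcodes (-1.53). Mrc1 (-1.16), Fcgr1, a high-affinity IgG receptor (-0.70), the platelet factor gene Pf4 (-1.46) and the chemokine gene Ccl12 (-1.85) fell as well. The macrophage share of all members was lower in both BPTES libraries, while at 10 or more Mki67 and Top2a UMIs the groups overlapped in it. The part of that share in these calls was not tested. Pou2af1, a B cell coactivator, was at 71.1, 73.3, 19.4 and 19.4 CPM, a rise of 1.90, and Ighg2c rose by 8.25 with 98.8% of its UMIs in 3 barcodes. Dropping BPTES replicate 2 gave 14 calls and dropping BPTES replicate 1 gave 55, while DMSO replicate 2 gave 226 and DMSO replicate 1 gave 431, of which 8, 35, 162 and 223 were among the 378. Without two-type barcodes there were 10, all among the 378.

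Of the genes of glutamine and glutamate metabolism, 1 was called in the members. Glul, glutamine synthetase, which makes glutamine from glutamate, was at 48.4, 42.8, 63.1 and 64.9 CPM over all members, and fell by 0.49 (SE 0.084, edgeR adjusted p 0.0489). That call was lost when any 1 library was left out (adjusted p 0.0647 to 0.219) and without two-type barcodes (0.503), and also without Scrublet doublets and at 5 or 10 UMIs. In macrophages Glul was at 61.5, 56.5, 78.2 and 79.8 CPM (-0.42, edgeR adjusted p 0.0952), and in T cells at 29.3, 26.7, 36.8 and 54.7 (-0.71, edgeR adjusted p 0.775). Glul was thus the 1 of 17 tested genes of glutamine and glutamate metabolism that was called, beside 2.64% of all genes. Of the 17, 10 were above and 7 below 0, with a median of 0.02, and 9 had an unadjusted p under 0.05, against 20.2% of all genes. None of 16 genes of glutamine-using nucleotide synthesis was called in any gate, with medians of -0.09 to 0.02. Of the amino acid stress genes downstream of ATF4, 1 of 12 was called, Phgdh of serine synthesis, at 26.9, 31.7, 18.2 and 17.8 CPM (log2 change 0.70, edgeR adjusted p 0.0428). That call was lost when any 1 library was left out, without two-type barcodes, without Scrublet doublets and at 5 or 10 UMIs. An unadjusted p under 0.05 was reached by 0 of the 16 and 4 of the 12.

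The cyclins of G1 and the inhibitors of cyclin-dependent kinases gave no call in any gate. Cdkn1a (p21), which arrests cells after p53 activation, was at 101, 88.5, 120 and 144 CPM over all members, a log2 change of -0.48 (edgeR adjusted p 0.108). Cdkn2a (p16 and p19Arf), a marker of senescent cells, was at 2.71, 3.51, 8.002 and 3.94 CPM (-0.94, edgeR adjusted p 0.268). Ccnd2, the D cyclin of lymphocytes, was at 179.7, 193, 188 and 198 CPM. The DMSO libraries were the higher ones for Cdkn1a and Cdkn2a, and neighbouring libraries overlapped for Ccnd2. Cd38, an NAD-consuming ectoenzyme of activated leukocytes, was at 27.6, 28.8, 37.3 and 44.3 CPM (-0.53, edgeR adjusted p 0.0693). Retnla, a secreted product of alternatively activated macrophages, was at 0.839, 0.984, 19.1 and 78.8 CPM in cycling macrophages, with 55.5% of its UMIs in 3 barcodes, and was not called (edgeR adjusted p 0.226). Vcam1, an adhesion molecule, was at 21.8, 11.8, 95.7 and 38.0 CPM there (edgeR adjusted p 0.296).

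Most genes of the macrophage identity and inflammation lists had values below 0 over all members, and few were called. Of all genes tested 51.1% were below 0, and 1.27% were called lower. Of 16 tested macrophage identity genes 14 were below 0 and 2, Mrc1 and Fcgr1, were called, with a median of -0.61 and 12 at an unadjusted p under 0.05. In cycling macrophages alone the median was -0.53 with 0 called. Of 19 NF-kB and inflammation genes 18 were below 0 and 3 were called, Ccl2 (-1.77), Il1a (-2.62) and Ptgs2, the inducible cyclooxygenase (-0.90), with a median of -0.36 and 10 at an unadjusted p under 0.05. Without two-type barcodes none of these 5 was called over all members, and the medians of the 2 lists were -0.61 and -0.27. Tnfrsf4 (OX40), a costimulatory receptor of activated T cells, was the 1 called gene of 25 on the T cell list, at 14.9, 16.9, 29.8 and 40.5 CPM (-1.15, edgeR adjusted p 0.0428), and 3 of the 25 had an unadjusted p under 0.05. The interferon, MHC class II and immediate early lists gave 0 calls over all members, with medians of -0.10, -0.11 and 0.00.

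The BPTES effect differed between cycling and non-cycling macrophages for a few genes. The difference of the 2 log2 changes was tested in 1 fit over both states, and 16 of 14902 genes passed (0.107%), 6 with a higher (0.0403%) and 10 with a lower value (0.0671%) in cycling cells. Among the 16 were the immunoglobulin variable genes Igkv6-20, Ighv1-80, Igkv1-135 and Ighv1-26. These genes, Cxcl3 and Cd163l1 had 55.9 to 100% of their UMIs in cycling macrophages in 3 barcodes. In non-cycling macrophages alone, 111 of 14587 genes were called (0.761%), 36 higher (0.247%) and 75 lower (0.514%) under BPTES. In non-cycling T cells 5 of 13449 were called (0.0372%), 2 higher (0.0149%) and 3 lower (0.0223%). Prg2 had the lowest p, at 55.2, 46.2, 16.3 and 18.3 CPM of the unscaled sums in cycling macrophages and at 18.04, 19.6, 0.490 and 0.515 in non-cycling ones. Its log2 change was 1.68 in cycling and 5.25 in non-cycling macrophages, a difference of -3.58 (SE 0.243, edgeR adjusted p 0.000877). Ptgs2 was at 21.5, 24.6, 42.2 and 57.2 CPM of the unscaled sums in cycling macrophages and at 41.0, 38.2, 34.6 and 49.1 in non-cycling ones, a difference of -0.98 (SE 0.125, edgeR adjusted p 0.0323). Ear2, an eosinophil-associated ribonuclease, was at 49.3, 35.2, 141 and 99.8 CPM in cycling and 71.1, 58.2, 119 and 74.4 in non-cycling macrophages, a difference of -0.88 (edgeR adjusted p 0.0238). For Ptgs2 the groups did not overlap in cycling and overlapped in non-cycling macrophages, and for Ear2 they did not overlap in either. The neutrophil markers given above were lower in both BPTES libraries in cycling and higher in both in non-cycling macrophages, and their part in these differences was not tested. Hsp90b1, a chaperone of the endoplasmic reticulum, was at 981, 1050.3, 667 and 729 CPM in cycling and 580.1, 659, 563 and 612 in non-cycling macrophages, a difference of 0.53 (edgeR adjusted p 0.0330). Edem1 and Sec11c, of the same organelle, gave 0.66 and 0.56, and Cmah and P3h2 gave 0.78 and 0.94. The plasma cell markers that move with these secretory genes are given above for cycling macrophages, and in non-cycling ones they made up 1120, 3900, 159 and 184 CPM. Several of these differences turned their sign in other settings. Without two-type barcodes the difference was 0.10 for Ear2 and -0.82 for Cmah. Among members with at least 10 Mki67 and Top2a UMIs it was 0.11 for Ear2, -0.00755 for Hsp90b1, -0.0448 for Edem1 and -0.0939 for Sec11c. Without two-type barcodes 6 genes passed, of which P3h2, a collagen prolyl hydroxylase, was the 1 shared with the 16. Leaving out 1 library raised the number to 293, 312, 86 and 67. In T cells 0 of 13338 genes passed by edgeR, where 454 had an unadjusted p under 0.05, while 1 was called by DESeq2.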

How the data were processed

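Single-cell RNA was measured in 4 libraries, 2 per group, with the 10x GEM-X 3' kit per the labels' protocols. The authors deposited 1 matrix of UMI counts per library, made with Cell Ranger 8.0.1 on mm10 per the submitters' processing notes, and the annotation was not given in the sources used here. From these counts, barcodes were gated as stated, UMIs were summed per library and gate, and BPTES was compared with DMSO with edgeR 4.0.16 (quasi-likelihood, TMM scaling, filterByExpr, R 4.3.3), with Benjamini-Hochberg adjustment over all genes tested at 0.05. DESeq2 1.42.0 was an alternative. The member sums held 10875837 to 25091381 UMIs per library. Shares carry exact binomial intervals, which cover counting error only, and were compared with exact permutation tests. Doublets were not removed in the reported values. Scrublet's own threshold marked 0 to 175 barcodes per library and was not used, and an alternative removed the 564 to 740 highest scores. The fits were checked on simulated data with the fitted common dispersion for every gene. Changed genes were drawn from those with a mean of at least 20 UMIs per sum, so recovery of genes with fewer is not known. Of simulated log2 changes of 1, 82% were called over all members, 84% in macrophages, 29% in T cells and 44% in other leukocytes. The test of the difference called 74% in macrophages and 20% in T cells. Few calls in T cells therefore do not show that few genes changed.

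The members, gene lists and tests were chosen with earlier results of these data known. Named in the text are the up to 10 higher and 10 lower called genes of largest change in a fit (mean log2 CPM 5 or more, no overlap between groups), called list members and the most abundant members of each list, and a set of cell cycle, glutamine and marker genes, of which some are not reported here. Il1a, Acod1, Flt3, Cldn1, the difference of Prg2 and the genes called without two-type barcodes or at 10 Mki67 and Top2a UMIs were chosen after their values were seen, where that rule does not name them. Both of those settings were added after seeing the data. The labels do not say that a replicate number marks a shared batch, so the reported fits have no block.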

Additional observations from a re-analysis of the deposited data

Results flagged for a closer look

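The BPTES effect differed between cycling and non-cycling macrophages for 16 genes by edgeR's test of the difference itself. Of those named by the rule, the log2 effect in cycling minus that in non-cycling macrophages was -0.88 for Ear2, 0.94 for P3h2, -0.98 for Ptgs2, 0.78 for Cmah, 0.53 for Hsp90b1, 0.66 for Edem1 and 0.56 for Sec11c. P3h2 had 58.7, 58.0, 22.6 and 37.1 CPM in cycling and 41.1, 42.0, 31.7 and 45.6 in non-cycling macrophages. Its difference was larger without two-type barcodes (1.79, edgeR adjusted p 0.00135) and did not pass at 10 UMIs (1.01, 0.869). The differences of Ear2 and Cmah turned their sign without two-type barcodes (0.10 and -0.82), and those of Ear2, Hsp90b1, Edem1 and Sec11c at 10 UMIs (0.11, -0.00755, -0.0448 and -0.0939). The part of plasma cell transcripts in the differences of Hsp90b1, Edem1 and Sec11c was not tested. Igkv6-20, Ighv1-80, Igkv1-135, Ighv1-26, Cxcl3 and Cd163l1, also among the 16, had 55.9 to 100% of their UMIs in cycling macrophages in 3 barcodes.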

How the results depend on the processing

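The lower cycling share under BPTES kept its direction in all 4 gates at 5 and 10 Mki67 and Top2a UMIs, at a mitochondrial limit of 25%, without Scrublet doublets, without two-type barcodes and after thinning. Leaving out 1 library gave log2 ratios of -1.14 to -0.84 for all gated leukocytes, -1.18 to -0.90 in macrophages, -1.34 to -0.77 for the share of cycling cells among gated T cells and -0.58 to -0.46 in others. Numbers of called genes moved far more. Over all members, 378 became 649 without the low-count filter, 752 with DESeq2, 15 at 5 UMIs, 9 at 10, 201 without Scrublet doublets, 10 without two-type barcodes and 14 to 431 without 1 library. In macrophages, 109 became 329 without the filter, 399 with DESeq2, 7 at 5 UMIs, 11 at 10, 2 without two-type barcodes and 22 to 405 without 1 library. In T cells, 5 became 284 without the filter, 25 with DESeq2, 1 without Scrublet doublets, 1 without two-type barcodes and 6 to 13 without 1 library. In other leukocytes, 84 became 266 without the filter, 320 with DESeq2, 26 at 5 UMIs, 26 without Scrublet doublets and 0 to 66 without 1 library. The 16 differences between cycling and non-cycling macrophages became 170 without the filter, 26 with DESeq2, 27 without Scrublet doublets, 12 at 5 UMIs, 15 at 10, 6 without two-type barcodes and 67 to 312 without 1 library. Of these, 9 without Scrublet doublets, 3 at 5 UMIs, 1 at 10 and 1 without two-type barcodes were among the 16. The 0 differences in T cells became 25 without the filter, 1 with DESeq2, 2 at 5 UMIs and 2 to 15 without 1 library. Causes of these changes were not tested. The settings at 5 and 10 UMIs and those without some barcodes hold fewer cells, and their counts lay both above and below the reported ones. The fits without 1 library assume that the lone library varies like the others. T cells at 10 UMIs could not be fitted, with 7 barcodes in BPTES replicate 1.

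Among the named values, without two-type barcodes the sign turned for Txndc5 (-0.000795) and Slpi (-3.16) in macrophages and for the differences of Ear2 (0.10) and Cmah (-0.82). At 10 UMIs it turned for AA467197 in other leukocytes (0.14) and for the differences of Ear2 (0.11), Hsp90b1 (-0.00755), Edem1 (-0.0448) and Sec11c (-0.0939). Of the other genes called higher in macrophages, Cmah (-1.07), Serinc5 (-0.29), Pdia4 (-0.21), Kcnq5 (-1.59), Ckap4 (-0.73) and Chchd10 (-0.58) turned without two-type barcodes. Of 80 called values of named genes, DESeq2 kept 80, the Scrublet setting 50, the fits without BPTES replicate 1 and 2 27 and 21, those without DMSO replicate 1 and 2 61 and 54, and those at 5 and 10 UMIs 17 and 12. Without two-type barcodes 2 were kept, 46 were no longer called, 4 turned their sign, and the rest had no value.

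With the replicate number as a block, 541 genes were called over all members, 300 in macrophages, 5 in T cells and 330 in other leukocytes. The mean over both pairs of the log2 ratio of shares was -0.996 for all gated leukocytes, -1.04 in macrophages, -1.06 in T cells and -0.52 in others. Deviations of same-numbered libraries correlated by 0.0526 over all members, 0.0635 in macrophages, 0.107 in T cells and 0.00678 in others, and 2 pairs do not settle whether equal numbers share a batch.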
